A study of Mus musculus with 3 samples.

Results

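Cells positive for the cytokine gene Il17b and for contractile genes made up a small, spatially clumped set in 3 mouse mammary tumours. A cell was taken as a member when it held at least 2 transcripts of Il17b and at least 2 transcripts of Acta2, Myl9 and Tagln added together. Candidates, called kept cells here, had at least 20 transcripts of panel genes and lay between 50 µm3 and 3 section medians in volume. Members numbered 6747 of 1747403 kept cells, with 4090 of 619770 in tumour 1, 1325 of 453995 in tumour 2 and 1332 of 673638 in tumour 3. Their share of kept cells was 0.660%, 0.292% and 0.198% in tumours 1, 2 and 3, a mean of 0.383% ± 0.244 (SD, n = 3). Members were chosen by the measured counts of these 4 genes, so the levels of the 4 genes below are a description with no test.

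The sections were formalin-fixed, paraffin-embedded mammary tumours, untreated, titled MMTV-PyMT WT, and imaged with MERSCOPE, which decodes single transcripts of a chosen gene panel in place and assigns them to segmented cells. MMTV-PyMT mice carry the polyoma virus middle T oncogene under a mouse mammary tumour virus promoter, which is active in mammary epithelium. All 3 tumours belong to a single group with no control tissue, and the sources used here give neither the meaning of WT nor the age of the mice. Each comparison is therefore between cells of the same section, repeated over the 3 tumours.

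Myoepithelial cells form the outer, basal layer of the mammary duct. They contract through smooth muscle proteins, carry basal keratins such as Krt5 and Krt14 with the transcription factor Trp63, and sit on a basement membrane whose parts they help to make. Acta2 encodes smooth muscle actin, Myl9 a regulatory light chain of myosin, and Tagln the actin-binding protein transgelin. These contractile genes are shared with pericytes, vascular smooth muscle and activated fibroblasts. Il17b encodes a secreted cytokine of the interleukin 17 family that signals through the receptor IL-17RB.

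The 3 tables held counts of 258 genes and 27 blank codes, which stand for no gene and so count decoding errors, for 663145, 513963 and 786165 cells. No cell identifier was shared between sections. Members held a median of 123, 228 and 134 transcripts in tumours 1, 2 and 3 against 97, 106 and 94 in other kept cells, and their median volume was 780, 855 and 780 µm3 against 555, 672 and 621. Blank codes took 0.732%, 0.530% and 0.592% of the transcripts of members and 0.496%, 0.471% and 0.485% of those of other kept cells. Members were thus larger, deeper and somewhat richer in blank codes in each tumour. A gate on minimum counts favours deeper cells and adds the gate transcripts themselves, so the rule sets part of the difference in depth. Without the 4 gate genes the medians were 115, 221 and 126 transcripts in members against 97, 105 and 94 in other kept cells. Levels are given below as transcripts per 1000 panel transcripts other than the 4 gate genes, summed over all cells of a class.

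The share of members was lowest in the shallowest cells of every tumour. It was highest at 100 to 199 transcripts in tumours 1 and 3 and in the deepest cells of tumour 2. In tumour 1 it was 0.131%, 0.551%, 0.953% and 0.795% for cells with 20 to 49, 50 to 99, 100 to 199 and 200 or more transcripts. In tumour 2 the same bins gave 0.00390%, 0.0623%, 0.270% and 0.970%, so most of its members came from the deepest cells, and tumour 3 gave 0.0224%, 0.145%, 0.316% and 0.298%. Each of the 27 blank codes was put in place of Il17b in turn. The blank code whose gate took the most cells took 383, 323 and 163. The Il17b gate took 4090, 1325 and 1332, which is 10.7, 4.10 and 8.17 times as many. The gate was least separated from false decoding in tumour 2. Over all kept cells, Il17b totalled 52163, 37807 and 30506 transcripts. The blank code with the highest total held 33172, 24606 and 31056, so in tumour 3 the gene lay below it before cells were chosen.

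Within members, Il17b reached 35.7, 13.5 and 20.1 per 1000 in tumours 1, 2 and 3, against 0.490, 0.571 and 0.352 in other kept cells. A member held 4.49, 3.28 and 2.84 Il17b transcripts on average, with at most 32, 21 and 15 in a cell. Of the contractile genes, Myl9 stood at 15.6, 8.60 and 10.6 per 1000, Acta2 at 13.3, 5.39 and 11.3, and Tagln at 3.82, 5.81 and 11.9. Tagln was the lowest of the 3 in tumour 1 and the highest in tumour 3. The contractile sum averaged 4.11, 4.81 and 4.77 transcripts in a member.

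Cells with 2 or more Il17b transcripts numbered 7785, 4068 and 2897, and 52.5%, 32.6% and 46.0% of them met the contractile gate. Among kept cells with fewer Il17b transcripts, 4.24%, 4.07% and 2.90% met it. Seen the other way, 13.6%, 6.74% and 6.41% of all contractile gene-positive cells were members, so most contractile gene-positive cells in these sections held little or no Il17b. Cells that met both limits exactly, with 2 transcripts each, numbered 534, 261 and 275, and 81.3%, 31.4% and 48.0% of these lay within 25 µm of a member. Just outside the gate, cells with 1 Il17b transcript and 2 or more contractile transcripts numbered 2905, 2619 and 2592, and 54.2%, 24.1% and 35.5% of them lay that near to a member. Cells with 2 or more Il17b transcripts and 1 contractile transcript numbered 1773, 931 and 587, with 79.6%, 23.5% and 37.0% that near. Contractile gene-positive cells with no Il17b transcript lay there in 9.44%, 10.1% and 13.5% of cases. For members themselves the share with another member within 25 µm was 90.7%, 45.7% and 53.5%.

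The name myoepithelial-like was checked against Krt5, Krt14, Krt15 and Trp63, which the gate did not use. Their summed level in members was 11.7, 29.8 and 11.5 per 1000 in tumours 1, 2 and 3. In other kept cells it was 12.0, 6.62 and 7.49, so members as a whole were no higher than the rest of the section in tumour 1 and were higher in tumours 2 and 3. Basal keratin-high cells, in which Krt5, Krt14 and Krt15 made up at least 10% of panel transcripts, held 194, 183 and 183, a value their own selection sets. Of the members, 71, 75 and 12 cells met that keratin limit, or 1.74%, 5.66% and 0.901%. In tumour 1 the sum was 2.04 in the largest linked group of members, described below, and 23.2 in the other members, so that group sets the tumour's value. In every tumour the sum in members stayed far below that of basal keratin-high cells. The cells are therefore called Il17b- and contractile gene-positive cells, or members, throughout.

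**Figure D1:**
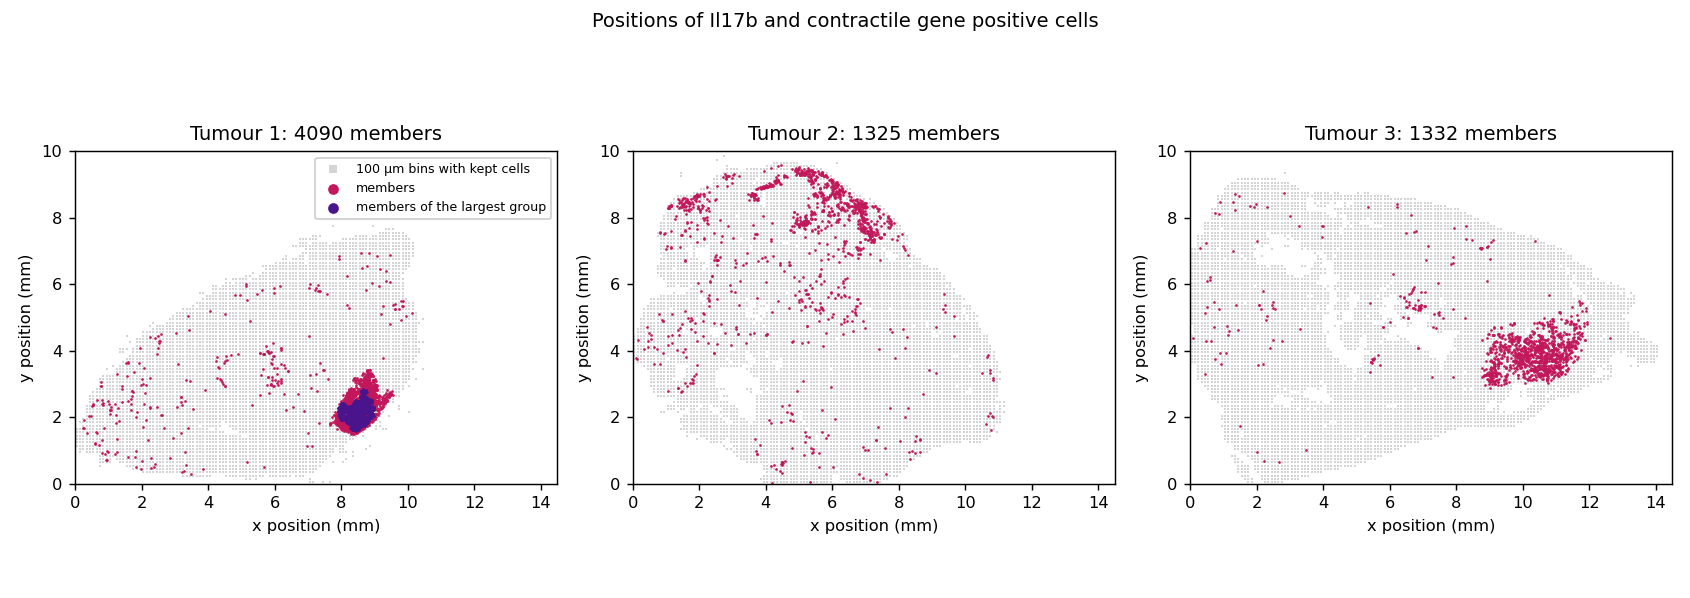
Positions of the 4090, 1325 and 1332 members (red) in the sections of tumours 1, 2 and 3, over 100 µm bins that hold kept cells (grey); both axes are in mm. In tumour 1 a single linked group of 2425 members (purple) lies at one end of the section, while in tumours 2 and 3 members concentrate in looser fields and are scattered elsewhere.

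Members lay nearer to each other than their share of cells gives in every section. Around a member, members made up 25.7%, 4.32% and 4.22% of the kept cells within 25 µm in tumours 1, 2 and 3. This is 39.0, 14.8 and 21.4 times their share of all kept cells, a mean log2 ratio of 4.53 ± 0.71 (SD, n = 3). Within 50 µm the ratio was 35.5, 10.5 and 16.0, and within 100 µm it was 31.7, 7.99 and 13.5. The excess was thus present in all 3 tumours and fell slowly with distance. At 475 to 500 µm from a member, members still made up 12.4%, 0.928% and 1.904% of kept cells. With 3 tumours an exact sign-flip test cannot go below a two-sided p of 0.25, so no test is given.

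**Figure D2:**
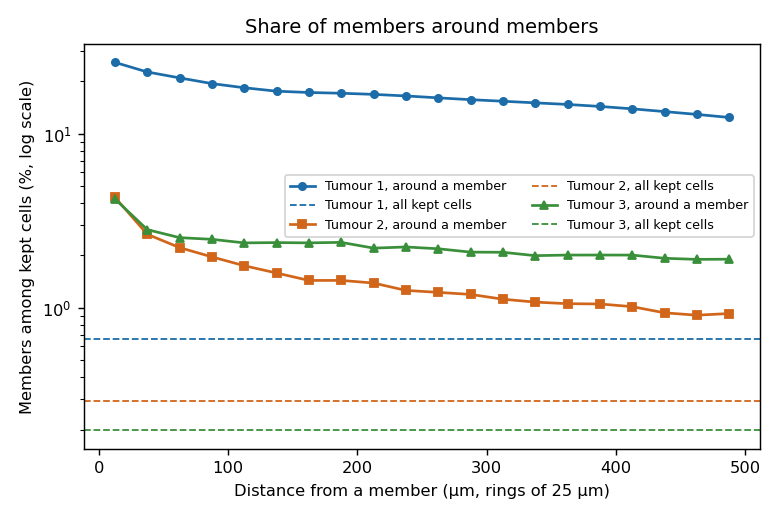
Members as a percentage of kept cells (log scale) in rings of 25 µm around a member, out to 500 µm, for each tumour (solid lines), with the share of members among all kept cells of that tumour (dashed lines at 0.660%, 0.292% and 0.198%). All 3 solid lines stay above their dashed line over the whole range, and that of tumour 1 starts at 25.7%.

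The form of the clumps differed between tumours. The median distance from a member to the next was 9.56, 28.0 and 22.9 µm, while the nearest kept cell of any kind was 7.23, 7.57 and 7.45 µm away. In tumour 1 members were therefore mostly neighbours of each other, and in tumours 2 and 3 they lay interspersed among other cells. Linking members within 25 µm of each other gave 493, 929 and 865 groups, and 9.32%, 54.3% and 46.5% of members had no partner. Groups of 5 or more cells held 86.4%, 12.4% and 12.7% of members. The largest group of tumour 1 held 2425 members, or 59.3% of that tumour's total, over 1242 by 1090 µm. Its own members made up 40.3% of the 6021 kept cells that belonged to it or lay within 10 µm of it. The largest groups of tumours 2 and 3 held 14 and 15 members. Without the 2425 cells, the log2 ratio within 25 µm in tumour 1 was 5.92 against 5.29 with them. The overall share of members, over which the ratio is taken, is smaller without this group. The higher ratio therefore does not show a higher local share of members.

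Basal keratin-high cells, measured in the same way, were clumped in the reverse order of tumours. They were 3.90, 35.8 and 11.4 times their overall share within 25 µm of such a cell in tumours 1, 2 and 3, where members were 39.0, 14.8 and 21.4 times theirs. Over the tumours the log2 ratio was 3.55 ± 1.60 for basal keratin-high cells (SD, n = 3), which overlaps the 4.53 ± 0.71 of members. The difference between the cell classes was not tested.

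Cells that passed a single side of the gate gathered around members as well. Il17b-positive cells below the contractile limit made up 11.7%, 2.65% and 1.94% of non-members within 25 µm of a member and 0.187%, 0.517% and 0.182% of those farther away. Contractile gene-positive cells below the Il17b limit made up 17.0%, 11.7% and 16.3% near members and 3.74%, 3.71% and 2.49% farther away. Both kinds were more frequent near members in all 3 tumours. Cells with 2 or more transcripts of the pericyte genes Pdgfrb and Rgs5 made up 2.91%, 5.23% and 2.45% of near non-members against 3.86%, 3.37% and 1.82% farther away, with no common direction. The same held for cells with the endothelial genes Pecam1 and Cdh5, at 2.88%, 3.70% and 0.938% near and 2.98%, 2.59% and 1.26% farther away. Whether transcripts of a neighbour assigned to a cell add to these shares was not tested.

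Compared with all other kept cells, members were higher in 4 genes of the stromal matrix list, Col4a1, Mgp, Jag2 and Pdgfa among others, and lower in 9 genes that included Saa1, Saa2, Cd14 and Atf3. Of 254 genes tested with edgeR's quasi-likelihood test, the tumour as a block and Benjamini-Hochberg adjustment, 28 were called at an adjusted p under 0.05 (11% of those tested), of which 19 were higher (7.48%) and 9 lower (3.54%). The median log2 fold change of all 254 was -0.06. Of the 19 higher genes, 10 stood above the highest blank code of members in all 3 tumours and had the same sign in each, as did all 9 lower genes in other kept cells. The other 9 higher genes (Wnt2, Snai2, Klrb1f, Cav1, Ifnb1, Retn, Wnt1, Il33 and Ccr3) lay at or below the highest blank code in at least 1 tumour, and blank codes were themselves more frequent in members. When the 27 blank codes were added to the fit, 3 of them were also called higher and 0 lower, beside 27 genes higher and 13 lower.

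These counts depended on the tumours used. Without tumour 1 edgeR called 0 genes (65 at an unadjusted p under 0.05), without tumour 3 it called 0 (42 at an unadjusted p under 0.05), and without tumour 2 it called 42 higher and 27 lower. DESeq2 on the same 3 tumours called 62 higher and 53 lower. All 28 genes kept the direction of their fold change in each of these fits. The fits reuse the same sums, so the kept direction is no independent support. In cells of 100 to 300 non-gate transcripts, which brings the depths of the classes together, 28 genes were higher and 12 lower, and all 28 of the original calls remained.

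Col4a1, which encodes a chain of the type IV collagen of basement membranes, was the most abundant gene of members in tumours 1 and 3. In tumour 2 the matrix gene Sparc, described below, stood above it. Col4a1 stood at 248, 56.8 and 119.7 per 1000 in members of tumours 1, 2 and 3 and at 20.2, 21.0 and 25.8 in other kept cells. Members lay above the other cells in every tumour, with tumour 1 far above the other tumours. The log2 fold change was 2.49 ± 0.48 (SE; adjusted p = 0.029, edgeR). Of the 4 tested genes of the basement membrane list, Col4a1 was the one that passed. Lama3, which encodes a laminin chain of epithelial basement membranes, had a log2 fold change of 1.98 (adjusted p = 0.075). Leaving Col4a1 out of all sums, to take its large share out of the library sizes, gave 26 higher and 15 lower genes.

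Away from members, cells rich in Col4a1 held little Il17b. In non-member cells over 200 µm from any member in which Col4a1 made up at least 10% of non-gate transcripts, Col4a1 stood at 204, 222 and 210 per 1000 and Il17b at 0.391, 0.551 and 0.407. In non-member cells with Pecam1 and Cdh5 at that distance, Col4a1 stood at 140.05, 147 and 153 and Il17b at 0.331, 0.495 and 0.328. Both Il17b ranges were close to the 0.490, 0.571 and 0.352 of all other kept cells, though the gate on members itself lowers Il17b in any set of non-members. The distance limit can lower it too, since Il17b-positive non-members were more frequent near members. Both limits bear on these values, so they do not tell whether Il17b goes with Col4a1 in such cells.

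Mgp, whose product binds calcium and inhibits calcification of matrix, showed the largest fold change. Its level in members was 42.1, 11.1 and 6.67 per 1000 against 2.99, 2.62 and 1.50 in other kept cells, a log2 fold change of 2.75 ± 0.46 (SE; adjusted p = 0.025, edgeR). The members of each tumour lay above all 3 values of the other cells, but they spanned a wide range with tumour 1 on top. The stromal matrix list had 4 of 11 tested genes higher and 0 lower, with a median log2 fold change of 0.38. Mmp2, a gelatin-cleaving metalloproteinase, stood at 4.01, 2.24 and 2.04 in members and 0.699, 0.586 and 0.349 in other cells. Postn, encoding the matrix protein periostin, stood at 12.8, 24.8 and 31.1 against 7.21, 5.57 and 4.12, here with tumour 1 lowest. Sparc, a collagen-binding matrix protein, stood at 46.4, 70.7 and 75.0 against 23.8, 20.2 and 17.2, and the collagenase Mmp13 had a log2 fold change of 1.37. The fibrillar collagen Col1a1 did not pass and had a log2 fold change of -1.37 (adjusted p = 0.075), so the higher matrix genes did not include the main collagen of fibroblasts.

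Among signalling and regulatory genes, the Notch ligand Jag2 stood at 6.28, 6.73 and 4.70 per 1000 in members and 1.93, 1.33 and 0.912 in other kept cells. Its log2 fold change was 2.21 ± 0.27 (SE; adjusted p = 0.018, edgeR), and it was the single called gene of 11 on the Notch list. Pdgfa, a growth factor ligand for platelet-derived growth factor receptors, stood at 13.3, 5.36 and 7.77 against 2.50, 1.86 and 1.89. Both ligands were above the other cells in every tumour. Ccnd2, encoding cyclin D2, stood at 7.22, 1.47 and 2.56 against 0.649, 0.513 and 0.390. Twist1, a transcription factor of mesenchymal programmes, stood at 1.33, 0.923 and 1.58 against 0.373, 0.381 and 0.297. The proliferation genes Mki67 (log2 fold change -0.34), Top2a (-0.28) and Ccnd1 (0.17) did not pass, each at an adjusted p of 0.55 or more.

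Genes lower in members included both serum amyloid A genes, which mark the acute-phase response. Saa1 stood at 0.527, 1.07 and 0.415 per 1000 in members against 3.80, 3.03 and 1.57 in other kept cells, a log2 fold change of -2.01 ± 0.33 (SE; adjusted p = 0.025, edgeR). Bglap3, an osteocalcin-related gene, had -2.05, Saa2 -1.74, the lipopolysaccharide co-receptor gene Cd14 -1.60 and Arg1, encoding arginase, -1.40. Atf3, the stress-response transcription factor, fell by 1.56 on the log2 scale and was 1 called gene of 7 on the stress and immediate early list, whose median was -0.87. Clu (-1.20) and the immediate early receptor gene Nr4a1 (-1.09) were also lower. On the luminal and epithelial list 0 of 5 genes passed, with Cldn4 at -1.43 (adjusted p = 0.091) and Cdh1 at -1.11 (adjusted p = 0.079).

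Of the 8 basal or myoepithelial genes tested, Snai2 alone passed, and 6 of 8 had a positive fold change. Snai2, the basal transcription factor Slug, had a log2 fold change of 1.74 ± 0.30 (SE; adjusted p = 0.025, edgeR), at 0.531, 0.997 and 0.969 per 1000 in members, below the highest blank code in tumour 1. Krt5 was higher in members mainly in tumour 2, at 8.59, 22.2 and 8.26 in members and 7.96, 3.30 and 4.50 in other kept cells. Its log2 fold change of 1.30 ± 0.52 (SE) had an adjusted p of 0.129 in edgeR, 0.0070 in DESeq2 and 0.045 in edgeR without the largest group of tumour 1. Trp63 stood at 1.43, 3.37 and 1.64 against 1.14, 1.45 and 0.792, with a log2 fold change of 0.94 (adjusted p = 0.075). Mylk, encoding myosin light chain kinase, had 1.02 (adjusted p = 0.076). Krt14 (log2 fold change -0.06), Krt15 (0.11), Krt17 (-0.59) and the stem cell receptor gene Lgr5 (0.10) did not pass.

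Against the 12546, 5024 and 9272 basal keratin-high cells that were no members, few genes were called. Of 251 genes tested without the gate genes and the keratins that chose these cells, 7 were called in edgeR at an adjusted p under 0.05 (2.79%), of which 4 were higher in members (1.59%) and 3 lower (1.2%), and 64 had an unadjusted p under 0.05. Col4a1 had the largest positive fold change of the called genes, at 248, 56.8 and 119.7 per 1000 against 14.7, 12.6 and 11.3, a log2 fold change of 3.14 ± 0.42 (SE; adjusted p = 0.0099). Ecrg4, which encodes a secreted precursor peptide, stood at 9.70, 3.68 and 0.810 against 0.355, 0.587 and 0.229, with a log2 fold change of 2.95 (adjusted p = 0.038). Mgp had 2.69 (adjusted p = 0.015). Wnt2 (1.98) and, among the lower genes, Foxc2 (-1.44) were near the level of blank codes.

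Krt17, a keratin of basal and stressed epithelium that the keratin gate did not use, fell by 3.97 ± 0.56 (SE) on the log2 scale (adjusted p = 0.0099, edgeR). It stood at 0.457, 1.40 and 1.83 per 1000 in members and 6.63, 54.4 and 10.5 in basal keratin-high cells, so the classes did not overlap. Tnc, encoding the matrix protein tenascin C, stood at 1.29, 3.11 and 1.13 against 4.52, 7.87 and 4.85, a log2 fold change of -1.84 (adjusted p = 0.015). Trp63 stood at 1.43, 3.37 and 1.64 against 3.97, 6.68 and 3.78, which missed the threshold at -1.31 (adjusted p = 0.055). On the basal or myoepithelial list 1 of the 5 tested genes was lower, with Mylk at -0.47, Snai2 at -0.80 and Lgr5 at -0.01. Jag2 was lower in members than in basal keratin-high cells in each tumour, at -0.95, but did not pass (adjusted p = 0.078). Without tumour 3 edgeR called 0 genes here (32 at an unadjusted p under 0.05), and without tumour 2 it called 20 higher and 19 lower. With library size alone in place of TMM the split was 4 higher and 8 lower, and the median of all genes moved from 0.05 to -0.13. DESeq2 called 33 higher and 35 lower. In cells of 100 to 300 non-gate transcripts 4 were higher and 3 lower, and 6 of the 7 calls remained.

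A further comparison set members against the 43975, 53563 and 50273 non-members within 50 µm of a member, so that both classes came from the same places. It holds the same member cells as the comparisons above and does not stand apart from them. Here edgeR called 90 of 254 genes at an adjusted p under 0.05 (35.4%), of which 39 were higher in members (15.4%) and 51 lower (20.1%). Of these, 19 higher and 49 lower genes stood above the highest blank code and had 1 sign in all 3 tumours. Without the tumour block, which removes the pairing of both classes by section, 0 genes passed (41 at an unadjusted p under 0.05). Without tumour 3 edgeR called 38 higher and 8 lower, and without tumour 2 it called 30 higher and 25 lower. Members were deeper than these neighbours, whose median was 88, 111 and 81 transcripts. In cells of 100 to 300 non-gate transcripts 39 genes were higher and 37 lower, and 70 of the 90 calls remained.

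Jag2 stood at 2.73, 2.03 and 1.03 per 1000 in the nearby cells, below the 6.28, 6.73 and 4.70 of members, a log2 fold change of 1.73 ± 0.22 (SE; adjusted p = 0.0061, edgeR). Col4a1 stood at 74.3, 25.8 and 35.9 in the nearby cells, a log2 fold change of 1.57 ± 0.21. Pdgfa had 1.55, Mmp2 1.45, Ecrg4 1.42, Ccnd2 1.36, Mgp and Postn 1.32 each, and Twist1 1.29. Members of each tumour were above their neighbours in all of these genes. For Mgp the neighbours held 11.9, 5.45 and 3.23 per 1000, between the levels of members and of all other kept cells in every tumour. The stromal matrix list had 5 of 11 genes higher and 3 lower. The basement membrane list had 2 of 4 higher, with Lama3 at 1.31 (adjusted p = 0.017), although Lama3 differed by 0.22 in tumour 1 against 1.85 and 1.74 in tumours 2 and 3.

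Near their own position, members were also higher in 4 of the 8 basal or myoepithelial genes and lower in none. Krt5 had a log2 fold change of 1.11 ± 0.30 (SE; adjusted p = 0.028, edgeR), Snai2 1.26 (adjusted p = 0.013), Trp63 0.70 (adjusted p = 0.033) and Mylk 0.68 (adjusted p = 0.030). For Krt5 the log2 ratio was 0.04 in tumour 1 against 1.92 and 1.29 in tumours 2 and 3. Krt14 (0.27), Krt17 (0.18), Lgr5 (0.18) and Krt15 (-0.11) did not pass. Flna, encoding the actin cross-linker filamin A, was higher at 0.55 (adjusted p = 0.038) and was 1 called gene of 2 on the actin list.

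Of the 5 tested genes of luminal and epithelial identity, 3 were lower in members than in the cells around them, and Wap (0.09) and Aldh1a3 (0.01) did not pass. Cldn4, a tight junction claudin, stood at 2.30, 6.03 and 8.58 per 1000 in members and 12.0, 10.1 and 18.3 in nearby cells, a log2 fold change of -1.38 ± 0.27 (SE; adjusted p = 0.013, edgeR). Cdh1, encoding E-cadherin, had -1.03 and the luminal regulator Gata3 -0.58. The epithelial transcription factor Grhl2 had -1.03. The stress and immediate early list had 4 of 7 genes lower, with Atf3 at -1.04, Jun at -0.84, Junb at -0.63 and Fos at -0.58. On the Wnt list 4 of 23 genes were higher, led by Wnt2 (1.32, near the blank codes) and Dkk3 (1.04), and 3 were lower, with Wnt7b at -0.99 and Rnf43 at -0.72. On the TGF-beta list 0 of 12 were higher and 3 were lower (Id2 at -0.80, Tgfb3 at -0.63 and Tgfb1 at -0.57). Over all 254 genes tested, 15.4% were higher and 20.1% lower, so the Wnt and TGF-beta counts do not set these lists apart. Saa1 (-1.42), Bglap3 (-1.38), Arg1 (-1.19) and Cd14 (-1.11) were lower as in the comparison with all other cells.

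Markers of other cell types differed in direction between lists and tumours. Of the 3 pericyte or smooth muscle markers, Notch3 was lower than in nearby cells (-1.02, adjusted p = 0.013), and Pdgfrb (-0.08) and Rgs5 (0.03) did not pass. The summed level of the 3 was 4.20, 9.50 and 9.51 per 1000 in members, 10.7, 12.7 and 15.3 in nearby cells and 11.9, 15.1 and 12.3 in all other kept cells. Notch3 made up most of this sum in members, with a mean of 5.61 against 1.42 for Pdgfrb and 0.714 for Rgs5. Against all other kept cells, 2 of the 3 markers had a positive fold change and 0 were called. Both endothelial markers, Pecam1 (-0.56) and Cdh5 (-0.58), were lower than nearby, with sums of 1.31, 1.30 and 0.501 against 2.13, 1.80 and 0.771. Of 8 fibroblast markers 3 were lower than nearby (Col1a1 at -1.02, Pi16 and Lrrc15) and Postn was higher. The fibroblast sum was 22.9, 64.4 and 46.9 in members and 50.5, 63.9 and 29.7 nearby, so members were below their neighbours in tumour 1, close to them in tumour 2 and above them in tumour 3. Postn, at 12.8, 24.8 and 31.1, is part of this sum. In all other kept cells it was 57.8, 59.2 and 42.5. None of the markers on these lists was at 0 in members of any tumour, but a value above 0 does not show expression. The highest blank code of members stood at 0.860, 0.528 and 0.751 per 1000. Pecam1 and Cdh5 had means of 0.516 and 0.523 in members. Cells with 2 or more transcripts of Pdgfrb and Rgs5 were 2.13%, 11.0% and 3.60% of members and 3.82%, 3.45% and 1.84% of non-members, so they were more frequent among members in tumours 2 and 3. Cells with 2 or more transcripts of 4 fibroblast genes (Pi16, Dpt, Clec3b and Lrrc15) were 2.05%, 8.75% and 1.05% of members against 5.69%, 4.40% and 2.35% of non-members. For the macrophage genes Adgre1 and Cx3cr1 the shares were 4.94%, 8.15% and 0.3003% against 4.43%, 3.44% and 0.858%. These shares are of cells past a fixed count, with depth not matched, and members were deeper. Median transcripts were 228 in members against 106 in other kept cells in tumour 2, and 134 against 94 in tumour 3. The part of depth in these shares was not tested. Tumour 2 had the higher share in members for all 3 kinds. The part of such cells in the results was not tested.

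The sides of the gate differed in what went with them. Kept cells were put into 4 classes by the Il17b limit and the contractile limit: neither, contractile genes alone, Il17b alone, and both. Col4a1 rose across these from 17.4 to 46.9, 159 and 248 per 1000 in tumour 1, was 19.9, 35.1, 29.8 and 56.8 in tumour 2, and 24.9, 43.7, 55.0 and 119.7 in tumour 3. Mgp took the same order in all 3 tumours, with 2.57, 6.38, 30.6 and 42.1 in tumour 1, and cells with Il17b alone held more of it than cells with contractile genes alone. Pdgfa was highest in members in every tumour, at 13.3, 5.36 and 7.77, against at most 7.91, 2.81 and 3.05 in the other classes.

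Col1a1 was high with the contractile genes in cells below the Il17b limit, and members of each tumour lay below those cells. It stood at 85.8, 90.1 and 78.3 per 1000 in cells with contractile genes alone, the highest of the 4 classes in each tumour, and at 7.98, 36.2 and 14.0 in members. Cells with Il17b alone held 17.0, 28.7 and 18.8, so members lay above them in tumour 2 and below them in tumours 1 and 3. Cldn4 was lowest in members in each tumour, at 2.30, 6.03 and 8.58, while cells with Il17b alone held 6.74, 7.93 and 20.7. Krt5 kept no order, since members were highest in tumours 2 and 3 (22.2 and 8.26) and cells with contractile genes alone in tumour 1 (18.6). These classes are cut from the gate itself, and no test is given for their order.

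**Figure D3:**
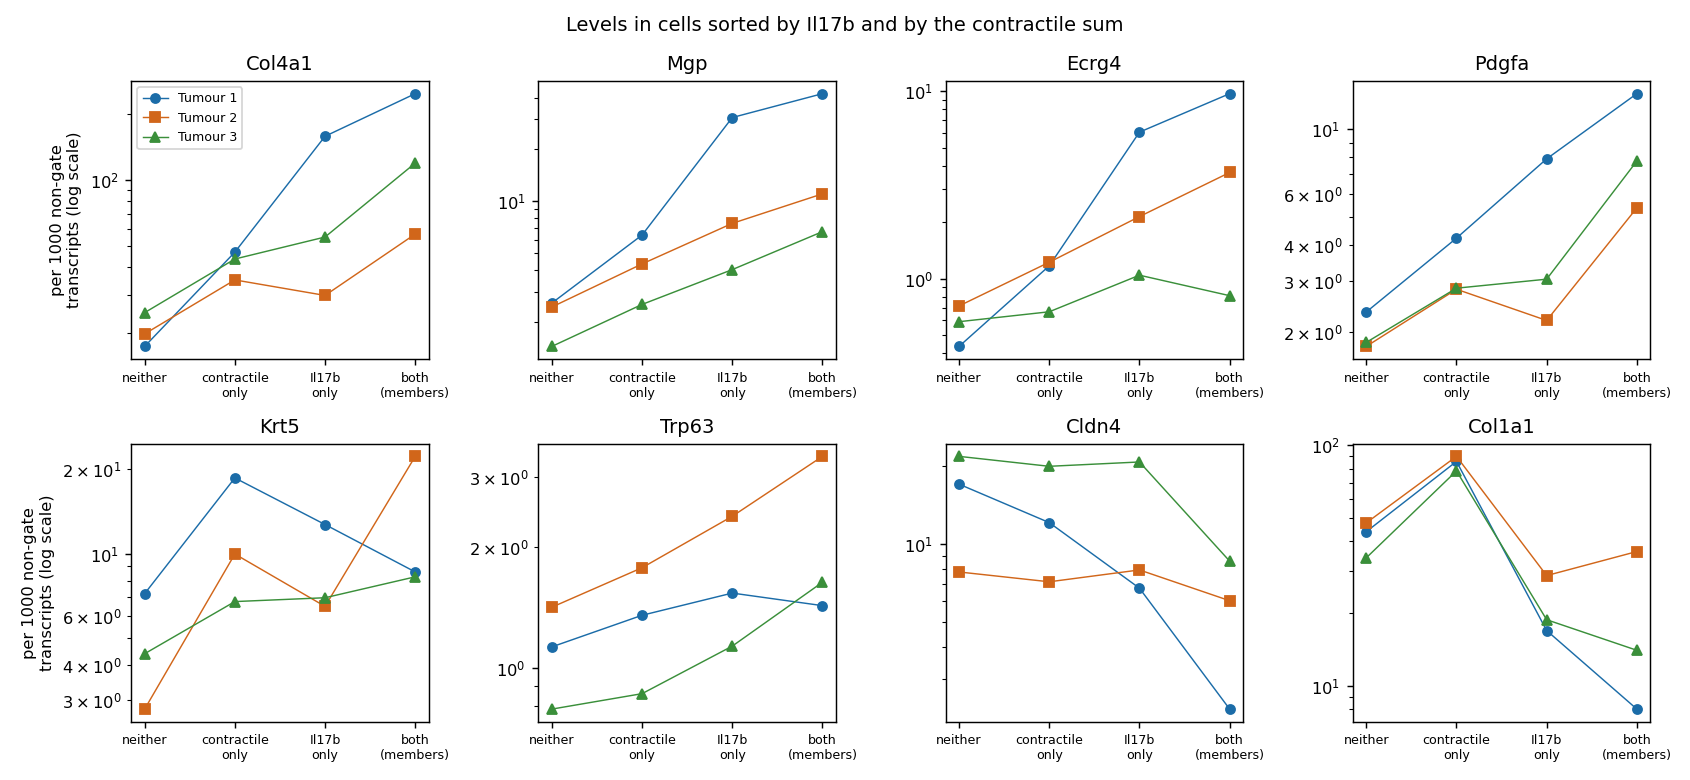
Level per 1000 non-gate transcripts (log scale) of 8 genes in kept cells with neither gate passed, with contractile genes alone, with Il17b alone and with both (members), each line a tumour. Col4a1, Mgp and Pdgfa are highest in members in all 3 tumours, Col1a1 is highest in cells with contractile genes alone, and Cldn4 is lowest in members.

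Clumped members, with 3 or more other members within 50 µm, were set against isolated members with none. There were 3751, 467 and 603 clumped and 214, 437 and 256 isolated members. Of 247 genes tested, edgeR called 0 (0%) at an adjusted p under 0.05, with 45 at an unadjusted p under 0.05 and a lowest adjusted p of 0.079. DESeq2 called 3 higher and 10 lower. Without tumour 2 edgeR called 6 higher and 12 lower, and without tumour 3 it called 7 higher and 10 lower. The genes at that lowest adjusted p included Krt14, Lamb3, Tnc and Saa1, which were at lower levels in clumps in all 3 tumours. Krt14 stood at 0.266, 1.93 and 0.227 per 1000 in clumped members and 8.19, 5.26 and 2.42 in isolated ones, a log2 fold change of -3.16 ± 0.64 (SE; adjusted p = 0.079, edgeR). The classes did not overlap for Krt14, though the call was not made. In tumour 1 the largest linked group of members, itself low in Krt14, bears on this contrast. With that group left out, edgeR again called 0 genes, and the lowest adjusted p was 0.151 against 0.079 with it. In tumours 2 and 3, which the group does not touch, the log2 ratio for Krt14 was -1.45 and -3.42. Lamb3, a laminin chain of epithelial basement membranes, had -2.05, Tnc -2.58 and Saa1 -1.65. Isolated members were deeper, with medians of 193.5, 251 and 155.5 transcripts against 120, 210 and 130 in clumped ones, and the part of depth in these differences was not tested beyond a window of 100 to 300 transcripts, in which edgeR called 2 genes lower and 0 higher.

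The 2425 members of the largest group in tumour 1 held few basal keratin transcripts. Krt5 stood at 0.414 per 1000 in the group, 18.4 in the other members of that tumour and 7.96 in its other kept cells. Krt14 was 0.204 in the group and 2.43 in the other members, while Trp63 was 1.29 and 1.60. Col1a1 was 1.10 in the group and 16.2 outside it. Col4a1 was 283 in the group and 207 in the other members, Mgp 46.0 and 37.5, and Il17b 41.7 and 28.5. The group thus shared high Col4a1 and Mgp with the other members of its section and differed from them in keratins and in fibrillar collagen. These are values of a single group in a single tumour, with no replicate. With the group left out, edgeR called 32 genes higher and 15 lower than in other kept cells, and all 28 of the original calls remained.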

How the data were processed

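The authors deposited a count of transcripts for each gene and cell, not normalized per the file headers, with cell volumes and centres (no unit in the deposited headers; µm was assumed). In every cell the sum of genes and blank codes equalled the deposited total. The panel is stated to hold 265 genes and 258 were used here. The software for decoding and segmentation is not stated. Scanpy 1.9.3 is listed in the submitters' processing notes, with no role. No doublet caller was run, and a segmented cell can hold transcripts of its neighbours.

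Counts were summed per tumour and cell class without the 4 gate genes and tested in edgeR 4.0.16 (R 4.3.3) with filterByExpr, TMM, tumour as block and the two-sided quasi-likelihood test. Benjamini-Hochberg adjustment ran over all genes tested. Both classes come from the same section, which is the source of the pairing. On simulated counts for members against other kept cells, with 40 of 254 genes changed, 45% of 2-fold and 100% of 4-fold changes were recovered, with 0 and 1 false calls. The simulation gave all genes a single dispersion of 0.0745, gave both classes the same tumour effect and changed as many genes up as down. Real differences between classes varied by tumour, so these rates need not hold for them.

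Named genes are the 10 with the largest fold change in each direction among those called, above the highest blank code and of 1 sign in 3 tumours, every basal or myoepithelial gene, and examples from the other lists. A gene that met this rule is not reported here. Sox11 and Cdkn1c were chosen after their values were seen. Members, lists and tests were chosen with earlier results of these data known. Alternatives were library size scaling, DESeq2 1.42.0, no filter, no block, a stricter gate (4 and 4 transcripts), a depth window, and each tumour left out; those without the largest group, without Col4a1 and with blank codes were chosen after seeing the data. The tumours are called distinct in the labels. With tumour as block, p-values set the within-section difference against its spread over these 3. That spread is not each gene's own alone, since edgeR moderates it with the spread of all genes tested.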

Additional observations from a re-analysis of the deposited data

How the results depend on the processing

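The 28, 7 and 90 genes called against other kept cells, basal keratin-high cells and nearby non-members kept their sign in every setting run. All settings draw on the same 3 tumours, so a kept sign is no independent support. Counts of calls moved, and so did their balance: against nearby non-members 39 higher and 51 lower became 38 and 8 without tumour 3, 30 and 25 without tumour 2 and 39 and 37 in the depth window. Against other kept cells, 19 higher and 9 lower became 62 and 53 in DESeq2 and 32 and 15 without the largest group of tumour 1. The stricter gate gave 37 higher and leaving out Col4a1 15 lower. Against basal keratin-high cells, 4 higher and 3 lower became 33 and 35 in DESeq2, 14 and 14 with the stricter gate and 8 and 5 without the largest group, and library size alone gave 4 and 8. For clumped against isolated members, 0 and 0 became 3 higher and 10 lower in DESeq2 and 2 lower in the depth window, and library size alone moved the median of all genes from -0.03 to -0.14. The stricter gate was not run there, since its smallest class held 1 cell. Leaving out a tumour gave 0 to 42 higher and 0 to 27 lower against other kept cells, 0 to 20 and 0 to 19 against basal keratin-high cells, 30 to 38 and 8 to 62 against nearby non-members, and 0 to 7 and 0 to 12 between clumped and isolated members. The stricter gate raised the mean log2 clumping ratio within 25 µm from 4.53 to 5.35. The cause of these moves was not tested.

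Without the replicate block, the pairing of both classes by tumour, 25 genes were higher and 5 lower against other kept cells, 1 higher and 0 lower against basal keratin-high cells, and 0 higher and 0 lower against nearby non-members. Clumped against isolated members stayed at 0. Precision is limited by 3 tumours, by the few isolated members (214 in the smallest set) and, for genes near the blank codes, by false decoding.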

Other observations

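Distance was measured to the outline of the imaged tissue, part of which is the limit of the image. Members lay at a median of 584, 535 and 1448 µm from it in tumours 1, 2 and 3, and other kept cells at 1075, 1202 and 1203 µm. Within 150 µm of the outline lay 4.47%, 14.9% and 0.375% of members against 5.30%, 6.29% and 5.20% of other kept cells. Cells with 2 or more transcripts of the proliferation genes Mki67 and Top2a made up 9.73%, 19.2% and 24.5% of members and 21.1%, 11.0% and 16.4% of non-members, with no common direction. Depth was not matched for these shares, and members were deeper in each tumour.

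The transcription factor gene Sox11 and the cell cycle inhibitor gene Cdkn1c were also higher in members than in nearby non-members. Sox11 stood at 3.48, 0.348 and 0.905 per 1000 in members and 1.30, 0.177 and 0.281 in nearby cells (log2 fold change 1.40, adjusted p = 0.013, edgeR), below the highest blank code in tumour 2. Cdkn1c stood at 11.1, 3.12 and 2.71 against 3.90, 1.60 and 1.85 (log2 fold change 1.04, adjusted p = 0.015, edgeR). Both were higher in 3 of 3 tumours.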
